A study of Rattus norvegicus with 8 samples.

Results

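The genes described here are the proteasome and immunoproteasome genes of rat abdominal aorta. They were taken by name, as every row of the expression table whose symbol begins with Psma, Psmb, Psmc, Psmd, Psme, Psmf or Psmg followed by a digit. This gave 50 of 18090 genes. Of these, 48 encode subunits, regulators or assembly chaperones of the proteasome, and Psmc3ip and Psme3ip1 were matched by name but encode binding partners of a subunit. The libraries came from aortas of wild-type rats. In 4 samples a filter paper with 10% FeCl3, an iron salt used to injure vessels so that a clot forms, had been laid around the vessel for 5 min, and 4 controls had received 0.9% saline in the same way. The comparison asks how transcripts of the aorta differ once FeCl3 has been applied. The sources used here do not give the strain, sex or age of the rats or the time of harvest.

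The proteasome degrades proteins that carry a ubiquitin chain. Its barrel, the 20S core particle, is built of alpha rings that gate the entrance and beta rings that hold the proteolytic sites, and the 19S regulatory particle on its end binds, unfolds and feeds in the substrate. Cells exposed to interferon, and many leukocytes at rest, replace the catalytic beta subunits by immunosubunits, which changes the peptides made for presentation on class I molecules. In the vessel wall the standard proteasome works in smooth muscle and endothelial cells alike.

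Values are FPKM, in which fragments are divided by gene length and by the size of the library, so that levels of different genes can be set side by side per length. Library totals recovered from the FPKM values ranged from 24304434 to 30283292 fragments. Contractile smooth muscle markers were present in all libraries, with a summed FPKM over 6 genes from 3822 to 10978 after FeCl3 and from 5004 to 27127 after saline. All 6 were below zero in log2 fold change (median -0.89). The make-up of the libraries differed widely. Summed FPKM of 10 leukocyte markers was 771, 713, 364 and 744 in FeCl3 replicates 1 to 4 and 3.87, 78.9, 60.6 and 586 in saline replicates 1 to 4. Haemoglobin genes took 36.0% to 64.9% of summed FPKM after FeCl3, 4.58% to 6.58% in saline replicates 1 to 3 and 43.6% in saline replicate 4. In saline replicate 1, 5 of the 10 leukocyte markers were at 0. Summed FPKM over the other marker lists ran, after FeCl3 and after saline, from 138 to 196 and 5.97 to 209 for endothelium, and from 960 to 2497 and 19.1 to 1641 for platelets. The ranges were 578 to 2944 and 446 to 2281 for fibroblasts, 419 to 10302 and 1.77 to 7960 for white adipocytes, and 12.5 to 40.5 and 17.9 to 29.9 for skeletal muscle. In whole tissue, fewer cells of a type and less RNA per cell cannot be told apart.

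Proteasome genes as a whole lay close to the other genes. Immunosubunit means were higher after FeCl3, those of nearly all 19S subunits were lower, and those of the standard 20S core were little different, but none of these differences passed the test gene by gene. A gene was tested with limma on log2(FPKM + 1) if it had at least 1 FPKM in at least 4 libraries, which kept 48 of the 50 genes and 11921 in all. At a Benjamini-Hochberg adjusted p under 0.05, 0 of the 48 and 0% of all tested genes were called, and the smallest adjusted p among the members was 0.245 (Psmd1). Without saline replicate 4, the control with the highest haemoglobin share, limma called 184 of 11405 genes, and without saline replicates 1 and 4 it called 67 of 11295, with 0 members among them in both fits. At an unadjusted p under 0.05, 3 of the 48 members were higher after FeCl3, where 4.42% of all tested genes were, and 6 were lower, where 12.2% of all tested genes were. All values of one group lay beyond those of the other for 6 members, all lower after FeCl3 (12.5% of the 48, against 8.75% of all tested genes), and for 0 members that were higher (1.06% of all tested genes). These shares are near the background. The median log2 fold change was -0.21 over the members and -0.25 over all tested genes.

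The level of all genes depended on scaling. With FPKM rescaled to TPM the median of all tested genes moved to -0.90 and that of the members to -0.93, and with median-of-ratios scaling they were -0.01 and 0.08. TPM scaling called 13 of the 48 members, all of them lower after FeCl3, and a similar share of all tested genes, 3288 of 11921. Median-of-ratios scaling called 0 members and 0 of all tested genes, and there 3 members did not overlap and were higher while 0 were lower. The share of all tested genes without overlap under that scaling is not given, so this count is not a result about the members. The medians of gene groups below are to be read against that of all tested genes, and ratios of genes within a library, which no scaling changes, carry the main comparison below. The signs of Psma2, Psmb4, Psmd4, Psmg4, Psme1, Pomp and Psmc3ip turned negative with TPM scaling, and those of Psmb5, Psmb6, Psma1, Psmb2, Psmc6 and Psmd6 turned positive with median-of-ratios scaling. Of the 14 standard core genes 7 had a positive fold change, 0 with TPM and 13 with median-of-ratios scaling. Psmb8, Psmb9 and Psmb10 kept their sign with both, at 1.32, 0.57 and 0.01 with TPM and 2.20, 1.498 and 0.97 with median-of-ratios scaling. The heat map shows the 46 tested subunits, regulators and chaperones in each library.

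**Figure D1:**
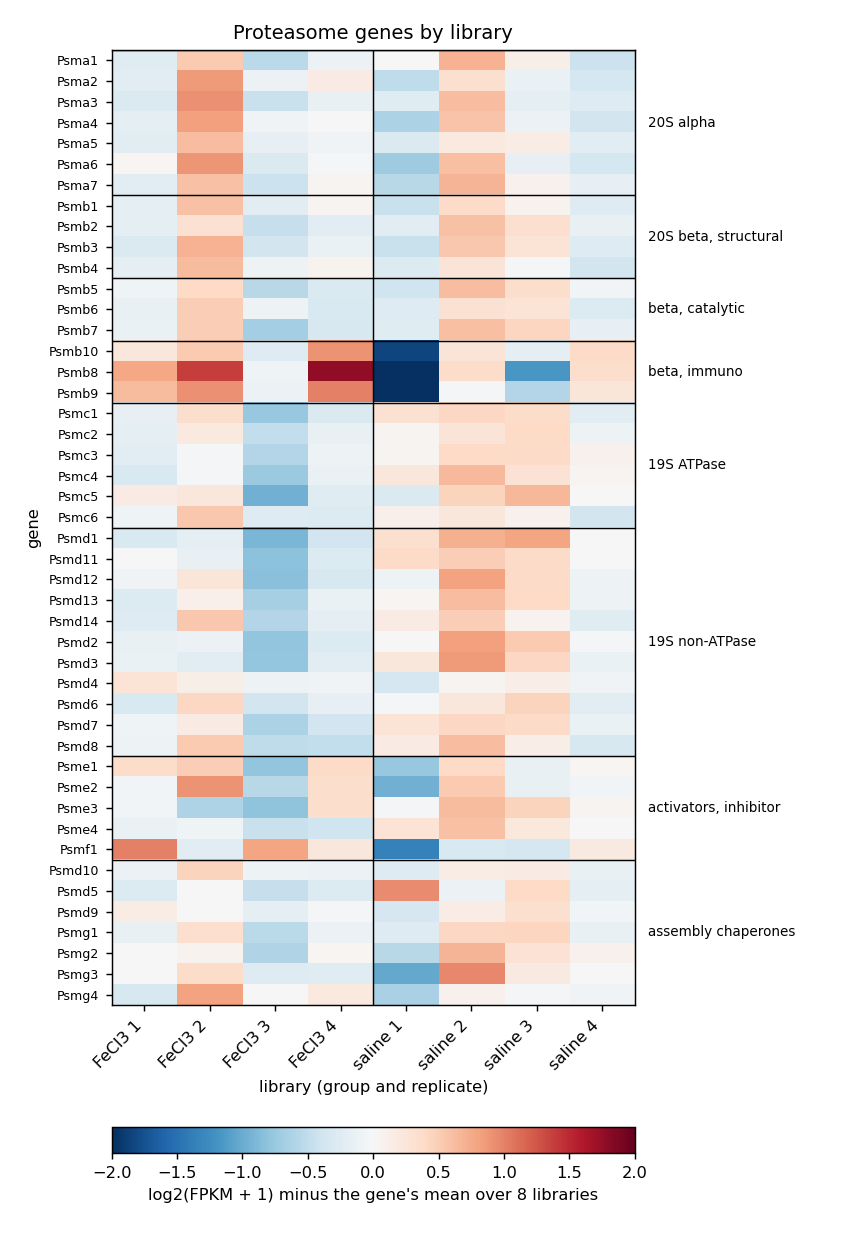
Rows are the 46 tested proteasome genes grouped by role and columns the 8 libraries; colour gives log2(FPKM + 1) minus the gene's mean over the 8 libraries, saturating at 2 in either direction. The immunosubunits Psmb8, Psmb9 and Psmb10 spread most, with saline replicate 1 lowest, while most 19S genes are lowest in FeCl3 replicate 3.

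The 3 immunosubunits replace the 3 standard catalytic subunits one for one. Psmb8 (beta5i, also called Lmp7), the chymotrypsin-like immunosubunit, measured 36.1, 55.3, 19.4 and 73.6 FPKM in FeCl3 replicates 1 to 4 and 1.06, 27.1, 8.68 and 26.9 FPKM in saline replicates 1 to 4. FeCl3 replicate 4 was highest, saline replicate 1 held 35 fragments of this gene, and the groups overlapped because FeCl3 replicate 3 lay below saline replicates 2 and 4. Psmb8 had the highest log2 fold change of the 48 members, 1.92 ± 0.83 (SE over 4 libraries per group), at a limma adjusted p = 0.299. Psmb9 (beta1i, Lmp2), which cleaves after hydrophobic residues in place of acidic ones, measured 24.9, 30.6, 14.3 and 32.8 FPKM after FeCl3 and 2.92, 15.5, 10.2 and 18.8 FPKM after saline. Its groups overlapped in the same place, at FeCl3 replicate 3, and its log2 fold change was 1.22 ± 0.51 (SE; adjusted p by limma = 0.286). Psmb10 (beta2i, Mecl1), the trypsin-like immunosubunit, measured 22.4, 27.6, 15.7 and 36.0 FPKM after FeCl3 and 4.56, 22.8, 16.5 and 25.0 FPKM after saline, with a log2 fold change at 0.69 ± 0.50 (SE; adjusted p by limma = 0.482). Saline replicate 1 was the lowest library for all 3 genes and FeCl3 replicate 4 the highest. Without saline replicate 1 the log2 fold changes were 1.11, 0.73 and 0.20 for Psmb8, Psmb9 and Psmb10.

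The promoters of these genes are shown because the immunosubunits are known interferon targets and had their highest and their lowest level in the same libraries. Windows from 250 bases before to 50 bases after each gene's start come from RefSeq on the GRCr8 build, a later build than the mRatBN7.2 named for the expression values. They were found for 45 of the 50 members. The core of the interferon-stimulated response element, GAAA, any 2 bases and GAAA again, was searched on both strands, and capitals mark each match. Each sequence is read along the strand of its gene.
Psmb8 (chr20:4656982-4657281, minus strand): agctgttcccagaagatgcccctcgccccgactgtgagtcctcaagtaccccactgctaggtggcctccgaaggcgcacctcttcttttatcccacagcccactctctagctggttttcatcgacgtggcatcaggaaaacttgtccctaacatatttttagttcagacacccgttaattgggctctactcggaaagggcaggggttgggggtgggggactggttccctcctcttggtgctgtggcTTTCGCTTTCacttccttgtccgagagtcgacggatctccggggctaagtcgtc
Psmb10 (chr19:50743243-50743542, minus strand): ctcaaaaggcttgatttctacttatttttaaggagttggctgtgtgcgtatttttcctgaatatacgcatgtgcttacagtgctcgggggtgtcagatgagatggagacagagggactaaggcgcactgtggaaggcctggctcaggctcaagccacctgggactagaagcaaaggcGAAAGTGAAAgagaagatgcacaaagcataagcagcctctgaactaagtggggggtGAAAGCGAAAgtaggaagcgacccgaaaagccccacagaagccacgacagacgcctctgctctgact
Psmb9 (chr20:4668750-4669049, plus strand): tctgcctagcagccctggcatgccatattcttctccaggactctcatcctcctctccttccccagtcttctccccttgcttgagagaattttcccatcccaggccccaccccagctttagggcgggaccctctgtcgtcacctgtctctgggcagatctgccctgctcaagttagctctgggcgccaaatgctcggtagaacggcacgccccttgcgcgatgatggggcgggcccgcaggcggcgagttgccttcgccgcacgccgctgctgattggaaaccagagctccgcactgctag
Tap1 (chr20:4668494-4668793, minus strand): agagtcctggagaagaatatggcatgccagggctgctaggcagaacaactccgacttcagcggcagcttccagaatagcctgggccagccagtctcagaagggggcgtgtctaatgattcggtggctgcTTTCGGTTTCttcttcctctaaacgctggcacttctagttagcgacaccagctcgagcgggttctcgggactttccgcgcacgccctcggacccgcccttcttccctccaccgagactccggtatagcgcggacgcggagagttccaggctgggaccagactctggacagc
Psmb8 holds 1 match, whose first base is at -4 from the start, and Psmb10 holds 2, at -73 and -17. The Psmb9 window holds none. Psmb9 lies head to head with Tap1, which encodes a chain of the peptide transporter for class I molecules, and their starts are 457 bases apart in the table. Their windows share 44 bases, and the Tap1 window holds 1 match, at -121.

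The core was present in 7 of 45 member promoters (15.6%), against 3.92% of all 33469 promoters in the table and 3% of the 9332 promoters of tested genes. The other 5 matches lie in genes of other roles and are shown as 40-base stretches.
Psme2 (chr15:33052780-33052819, minus strand): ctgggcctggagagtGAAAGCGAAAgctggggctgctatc
Psma4 (chr8:64236271-64236310, plus strand): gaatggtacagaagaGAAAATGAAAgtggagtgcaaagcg
Psmb3 (chr10:83193629-83193668, plus strand): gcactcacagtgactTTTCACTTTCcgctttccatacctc
Psmd7 (chr19:52411358-52411397, minus strand): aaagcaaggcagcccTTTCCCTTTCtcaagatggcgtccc
Psmg4 (chr17:30923342-30923381, minus strand): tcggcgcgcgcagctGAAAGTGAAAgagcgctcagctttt
Of these 5 genes, Psme2 encodes PA28beta, an interferon-inducible activator. Psma4, Psmb3, Psmd7 and Psmg4 encode an alpha ring subunit, a structural beta subunit, a lid subunit and an assembly chaperone, and had log2 fold changes of 0.28, -0.05, -0.47 and 0.33. A match of these letters is a description and not a bound site.

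The standard catalytic subunits had the levels against which the immunosubunits were set. Psmb5 (beta5) measured 85.6, 121, 61.7 and 74.3 FPKM in FeCl3 replicates 1 to 4 and 68.3, 140, 117 and 87.0 FPKM in saline replicates 1 to 4. Its log2 fold change was -0.26 ± 0.31 (SE; adjusted p by limma = 0.678), and the groups overlapped. Psmb6 (beta1) averaged 99.7 ± 26.8 FPKM with FeCl3 and 101 ± 22.4 with saline (SD, n = 4 each), and Psmb7 (beta2) averaged 101 ± 36.4 and 125 ± 36.7 FPKM. Their log2 fold changes were -0.02 and -0.32 (limma adjusted p of 0.97 and 0.622). All 3 standard genes lay above their immune counterparts per length in every library.

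Within each library, Psmb8 was set against Psmb5, Psmb9 against Psmb6 and Psmb10 against Psmb7, and Psme1 (PA28alpha, an interferon-inducible activator) against Psme3 (PA28gamma, a nuclear activator). The Psmb8 to Psmb5 ratio was 0.421, 0.459, 0.314 and 0.99 in FeCl3 replicates 1 to 4 and 0.0156, 0.193, 0.0743 and 0.309 in saline replicates 1 to 4. Every FeCl3 library was above every saline library, though FeCl3 replicate 3 and saline replicate 4 nearly met. On the log2 scale the ratio averaged -1.01 ± 0.71 with FeCl3 and -3.46 ± 1.90 with saline (SD, n = 4 each), a difference of 2.44, or 5.43-fold (exact two-sided permutation p = 0.0286, the smallest that 4 against 4 can give; adjusted p = 0.0571 over the 4 ratios). Put as a share of the pair, Psmb8 made up 29.6%, 31.5%, 23.9% and 49.8% of summed Psmb8 and Psmb5 FPKM after FeCl3 and 1.53%, 16.2%, 6.92% and 23.6% after saline.

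The Psmb9 to Psmb6 ratio was 0.282, 0.220, 0.156 and 0.411 after FeCl3 and 0.0356, 0.128, 0.0851 and 0.233 after saline. Saline replicate 4 lay above FeCl3 replicates 2 and 3, and the log2 difference was 1.37 (exact two-sided permutation p = 0.0857, adjusted p = 0.114). The Psmb10 to Psmb7 ratio was 0.226, 0.181, 0.233 and 0.417 after FeCl3 and 0.0502, 0.138, 0.113 and 0.258 after saline. Only FeCl3 replicate 4 exceeded saline replicate 4 in that ratio, and the log2 difference was 1.08 (exact two-sided permutation p = 0.114, adjusted p = 0.114). The Psme1 to Psme3 ratio was 7.94, 13.3, 6.20 and 5.97 after FeCl3 and 3.53, 4.98, 3.86 and 5.87 after saline. Those groups did not overlap, by a small margin between FeCl3 replicate 4 and saline replicate 4, and the log2 difference was 0.82 (exact two-sided permutation p = 0.0286, adjusted p = 0.0571). None of the 4 ratios passed after adjustment, and saline replicate 4 had the highest ratio of the controls in all 4. Psmb8 to Psmb5 and Psme1 to Psme3 both had the smallest p that the permutation test can give. With Psmb9 to Psmb6 and Psmb10 to Psmb7 above it, their adjusted p could not fall below 0.0571. Their failure to pass therefore says little about the size of the differences.

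**Figure D2:**
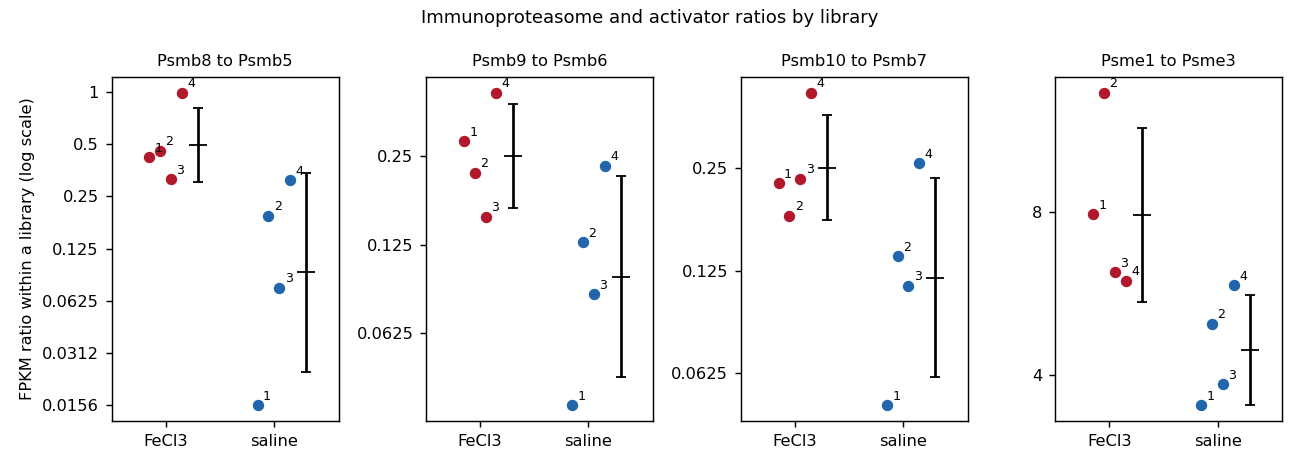
FPKM ratio of a pair of genes within each library on a log axis, with FeCl3 in red and saline in blue, replicate numbers beside the points, and the mean ± SD of the log2 ratios as a black bar. The Psmb8 to Psmb5 ratios run from 0.314 to 0.99 after FeCl3 and from 0.0156 to 0.309 after saline.

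The size of the 3 catalytic ratios rested in part on saline replicate 1. Without it the log2 differences were 1.59 for Psmb8 to Psmb5, 0.88 for Psmb9 to Psmb6 and 0.66 for Psmb10 to Psmb7, and with saline replicates 1 and 4 both left out they were 2.05, 1.27 and 1.01. All 10 leukocyte markers had a positive fold change. Among controls their summed FPKM was lowest in saline replicate 1 and highest in saline replicate 4, as the 3 catalytic ratios were. After FeCl3 their sum was highest in replicate 1 (771) and lowest in replicate 3 (364). The Psmb8 to Psmb5 and Psmb9 to Psmb6 ratios were also lowest in FeCl3 replicate 3, and the Psmb10 to Psmb7 ratio in FeCl3 replicate 2. All 3 ratios were highest in FeCl3 replicate 4. Platelet, endothelial, fibroblast and white adipocyte sums were also lowest in saline replicate 1. Ptprc, the pan-leukocyte CD45, measured 27.7, 15.3, 26.0 and 129 FPKM after FeCl3 and 0.293, 4.85, 3.02 and 33.3 FPKM after saline. FeCl3 replicate 4 and saline replicate 4 had the highest Ptprc of their groups, as they had the highest ratios of the catalytic pairs. Of the same marker list, Cd3e, Cd3g and Cd2 were also highest in FeCl3 replicate 4 within the FeCl3 group. The other markers were not. Within that group Cd68 and Csf1r were highest in replicate 1, Lyz2 and S100a8 in replicate 2, and Cd79a and Cd79b in replicate 3. The part of leukocytes or of other cell types in the ratios was not tested.

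The standard 20S core, of 14 tested subunits, was more abundant per length than the 19S particle in every library. Its geometric mean was 84.8, 150.0, 76.9 and 90.6 FPKM in FeCl3 replicates 1 to 4 and 74.2, 137, 104 and 80.4 FPKM in saline replicates 1 to 4. FeCl3 replicate 2 and saline replicate 2 were the high libraries of their groups and the groups overlapped. Within a library the core subunits kept close to each other, as the most abundant exceeded the least abundant by 2.29-fold to 2.98-fold. Psmb4, a structural beta subunit, was the most abundant in 7 of 8 libraries, and Psma2, an alpha ring subunit, in FeCl3 replicate 2.

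Of the 7 tested alpha ring subunits 5 had a positive fold change, and the group median was 0.33 above that of all tested genes. Psma2 had the highest, with 118, 252, 127 and 155 FPKM after FeCl3 and 96.7, 173, 127 and 109 FPKM after saline (log2 fold change 0.33 ± 0.31 SE, adjusted p by limma = 0.592), and its groups overlapped. Psma1 had the lowest, at -0.20 ± 0.32 (SE, adjusted p by limma = 0.765). Of the 4 structural beta subunits 2 were positive, from Psmb2 at -0.28 to Psmb4 at 0.20, and the median was 0.29 above all genes. The 3 standard catalytic genes had a median of -0.26, close to that of all genes, and 2 of the 3 lay below it. RefSeq lists copies for many of these genes (48 pseudogenes over 19 members on GRCr8, Psma2, Psma6, Psmb3 and Psmb4 among their parents). Psmb6, Psmb7, Psme1 and Psme3, which enter the ratios above, are parents too, and Psmb6 has a further protein-coding copy. Reads of such genes can be split or shared by the authors' counting, also in those ratios.

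The 19S regulatory particle lay on the other side of the gene-wide level. Of its 17 subunits 16 lay below zero in log2 fold change, as did 8363 of all 11921 tested genes, and 13 lay below the median of all tested genes. Their median was -0.46, and its difference from all tested genes was -0.22. With TPM scaling 17 were negative and with median-of-ratios scaling 13, and 15 and 12 of the 17 lay below the median of all tested genes of those fits. Psmd1 (Rpn2), a scaffold of the base, measured 27.1, 29.4, 17.5 and 25.7 FPKM in FeCl3 replicates 1 to 4 and 42.6, 55.8, 59.4 and 33.7 FPKM in saline replicates 1 to 4. Every saline library was above every FeCl3 library, with saline replicate 4 the lowest control, and the log2 fold change was -0.90 ± 0.26 (SE, adjusted p by limma = 0.245). The other base scaffold, Psmd2 (Rpn1), averaged 36.3 ± 7.28 FPKM with FeCl3 against 59.1 ± 17.5 with saline (SD over 4 libraries; log2 fold change -0.67, limma adjusted p = 0.281). For Psmd3 (Rpn3), a lid subunit, FPKM was 22.85, 21.5, 14.35 and 21.3 with FeCl3 and 29.7, 46.5, 33.7 and 22.86 with saline (log2 fold change -0.68, limma adjusted p = 0.273). Neither gene overlapped between groups, though for Psmd3 FeCl3 replicate 1 and saline replicate 4 were nearly equal.

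The 6 ATPases of the base, the ring that unfolds the substrate, all had negative fold changes, Psmc6 being positive with median-of-ratios scaling, and their median was -0.42, or -0.17 relative to all genes. Psmc4 had the lowest, with 31.3, 38.4, 22.8 and 35.3 FPKM after FeCl3 and 45.5, 61.4, 48.0 and 40.2 FPKM after saline (log2 fold change -0.60 ± 0.24 SE, adjusted p by limma = 0.273), and Psmc3 was at -0.46 (limma adjusted p = 0.312). For both genes all saline values lay above all FeCl3 values. Psmc1, the most abundant ATPase gene, was at -0.43 ± 0.29 (SE) and Psmc6 at -0.03 ± 0.26 (SE), and both overlapped. Among the 11 non-ATPase subunits the median was -0.48, or -0.23 relative to all genes. Psmd6, the most abundant of them, was at -0.22 ± 0.25 (SE). Psmd4 (Rpn10), a ubiquitin receptor, was the exception to the sign among these 11, averaging 64.5 ± 8.18 FPKM with FeCl3 against 60.0 ± 8.25 with saline (SD over 4 libraries; log2 fold change 0.11, limma adjusted p = 0.804). The genes that did not overlap were named after their values were seen (Psmc3, Psmd2, Psmd3 and the activator Psme4) or by the naming rule (Psmc4 and Psmd1).

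Gene length moved with fold change over the whole table, as the median was 0.04 in the shortest of 4 equal length classes of tested genes (up to 1780 bases) and -0.46 in the longest. Of the 14 core genes 13 belong to the shortest class, and so do 13 of the 17 genes of the 19S particle, whose median lengths were 947.5 and 1588 bases. The part of length in the contrast of the particles was not tested. Contractile smooth muscle markers were also lower after FeCl3 in their median, as given above, and their part in the 19S values was not tested.

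**Figure D3:**
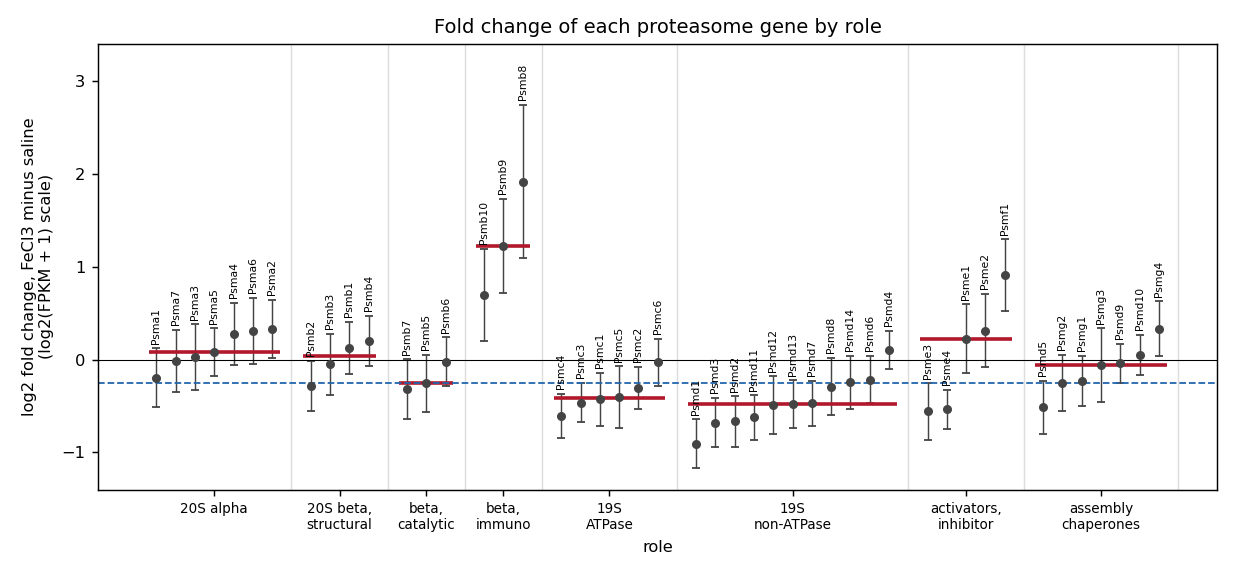
Log2 fold change of each tested gene (FeCl3 minus saline on the log2(FPKM + 1) scale, points with SE bars), grouped by role; red lines are group medians, the dashed blue line is the median of all tested genes at -0.25. Of the 17 Psmc and Psmd genes of the 19S particle 13 lie below the dashed line. Of the 14 standard core genes 11 lie above it, and Psmb8 is highest at 1.92.

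The balance of the particles was also read within each library, a measure chosen after the fold changes were seen, in which any trend with gene length remains. The ratio of the geometric mean FPKM of the 14 core genes to that of the 17 genes of the 19S particle was 1.96, 2.83, 2.55 and 2.26 in FeCl3 replicates 1 to 4 and 1.46, 2.02, 1.69 and 1.83 in saline replicates 1 to 4. FeCl3 replicate 1 lay below saline replicate 2, and the other FeCl3 libraries lay above all controls. On the log2 scale it averaged 1.25 ± 0.23 with FeCl3 and 0.80 ± 0.20 with saline (SD, n = 4 each), a difference of 0.45. The difference was 0.37 without saline replicate 1 and 0.47 without saline replicate 4. This is a score over genes selected with results known, so no p is given.

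Promoters of the proteasome genes were also searched for the antioxidant response element core, TGACNNNGC, the kind of site through which NFE2L1 raises subunit transcription when proteasome activity is short. It was present in 8 of 45 member promoters (17.8%), against 12.1% of all promoters in the table and 14.8% of those of tested genes. For each gene 1 match is shown in capitals within 30 bases. Psmd1 and Psmd9 each hold a second match, which is not shown.
Psmd1 (chr9:94157795-94157824, plus strand): gaccagatctaTGACCTCGCgagaattata
Psmd3 (chr10:84139940-84139969, plus strand): agtttgcagctGCTCGGTCAtcgtgcggcc
Psme4 (chr14:108706577-108706606, plus strand): gggagaaagccGCTGGGTCAcctcctcgcc
Psmb2 (chr5:144254979-144255008, plus strand): acccgcgccaaTGACCGGGCggtcgcatat
Psma3 (chr6:95219726-95219755, plus strand): ttctgtggcctGCCGGGTCAgcaccatgag
Psmb5 (chr15:32047421-32047450, minus strand): gcgtgaagctgTGACGTCGCggcgttgccc
Psmb6 (chr10:55737853-55737882, plus strand): actaaagagagTGACGGAGCgctttacgac
Psmd9 (chr12:39018323-39018352, minus strand): ggagtttccggTGACCTCGCcccacctcca
Psmd1, Psmd3 and Psme4, given on the first 3 lines, are among the 6 members that did not overlap between groups, Psmd3 by 22.85 against 22.86 FPKM. Those 6 are 12.5% of the 48 tested members, where 8.75% of all tested genes were lower without overlap. Psmb2, Psma3, Psmb5, Psmb6 and Psmd9 overlapped. A link between this motif and fold change was not tested. The NF-Y box, CCAAT on either strand, was in 23 of 45 member promoters (51.1%) and in 37.5% of all. Matches of the 3 motifs were counted separately, whether or not they overlap.

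Of the 5 activator and inhibitor genes 3 were positive and 2 negative. Psme1 had 133, 146, 58.8 and 134 FPKM in FeCl3 replicates 1 to 4 and 60.2, 136, 92.9 and 106 FPKM in saline replicates 1 to 4, with FeCl3 replicate 3 as low as saline replicate 1. Its log2 fold change was 0.23 ± 0.37 (SE, adjusted p by limma = 0.765), and that of its partner Psme2 0.31 ± 0.40. Psme3 had 16.7, 10.97, 9.48 and 22.5 FPKM after FeCl3 and 17.1, 27.4, 24.1 and 18.1 FPKM after saline (log2 fold change -0.56 ± 0.30 SE, adjusted p by limma = 0.372). Psme4 (PA200), a nuclear activator, had 8.64, 8.91, 6.72 and 7.02 FPKM after FeCl3 and 11.8, 14.8, 11.2 and 9.52 FPKM after saline, without overlap (log2 fold change -0.54 ± 0.21 SE, adjusted p by limma = 0.273). The interferon-inducible pair thus lay above the level of all genes and the nuclear activators below it.

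Psmf1 (PI31), named as an inhibitor of the 20S particle, had 55.3, 23.2, 47.5 and 31.7 FPKM in FeCl3 replicates 1 to 4 and 10.0, 21.7, 21.0 and 30.8 FPKM in saline replicates 1 to 4. FeCl3 replicate 2 lay within the control range, and saline replicate 4 was the highest control. Its log2 fold change, 0.91 ± 0.39 (SE, adjusted p by limma = 0.295), was the highest outside the immunosubunits. The share of haemoglobin genes in summed FPKM, 53.7%, 36.0%, 64.9% and 46.4% after FeCl3 and 6.58%, 4.58%, 6.06% and 43.6% after saline, was lowest in FeCl3 replicate 2 of its group and highest in saline replicate 4 of the controls, as Psmf1 was. The other ends differed, as Psmf1 was highest in FeCl3 replicate 1 and the haemoglobin share in FeCl3 replicate 3. Among controls Psmf1 was lowest in saline replicate 1 and the share in saline replicate 2. The part of red cell RNA in Psmf1 was not tested.

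The 7 assembly chaperones had a median of -0.06, which is 0.19 above all tested genes. Psmg4 (PAC4), which helps to build the alpha ring, was the most abundant and had the highest fold change, averaging 31.9 ± 11.5 FPKM with FeCl3 against 24.4 ± 5.21 with saline (SD over 4 libraries; log2 fold change 0.33, limma adjusted p = 0.564). Psmd5 (S5b), a chaperone of the base ATPases, had the lowest, with 13.4, 16.2, 11.6 and 13.4 FPKM after FeCl3 and 32.5, 15.1, 21.8 and 14.1 FPKM after saline (log2 fold change -0.51 ± 0.28 SE, adjusted p by limma = 0.380). Saline replicate 1 stood highest in Psmd5 (log2 fold change -0.28 without it) while it was lowest in Psmg3, at 5.66 FPKM against 12.5 to 25.3 FPKM in the other saline libraries. Psmg1, Psmg2, Psmd9 and Psmd10 had log2 fold changes from -0.25 to 0.05.

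Partner genes came from lists of pathway genes, from which the most abundant gene and genes at the ends of the range of fold change are given. Of 20 genes that assemble, regulate or shuttle substrates to the proteasome, 18 were in the table and tested, 13 were negative, where 8363 of all 11921 tested genes were, and 0 were called by limma. The median was -0.46, or -0.21 relative to all genes. Zfand2a (AIRAP), a stress-induced partner, had the lowest fold change, -1.14 ± 0.42 (SE, adjusted p by limma = 0.259), with 42.6 FPKM in saline replicate 1 and a fold change of -0.74 without that library. Pomp, the chaperone of 20S maturation and the most abundant of the list, was at 0.22 ± 0.37 (SE, adjusted p by limma = 0.767). Nfe2l1, the factor that senses short proteasome supply, had 46.3, 25.5, 23.4 and 29.8 FPKM after FeCl3 and 40.3, 55.1, 63.5 and 42.8 FPKM after saline, with overlap (log2 fold change -0.70, limma adjusted p = 0.273).

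Of 9 genes for ubiquitin and its activation, 3 were positive and the median was -0.38, or -0.14 relative to all genes. Ubb, a polyubiquitin gene, had 2193, 1190, 2381 and 1322 FPKM after FeCl3 and 540, 432, 668 and 1104 FPKM after saline, without overlap, and had a log2 fold change at 1.39 ± 0.40 (SE, adjusted p by limma = 0.245). Within the FeCl3 libraries Ubb had the order of the haemoglobin share, highest in replicate 3, then 1, 4 and 2. Nploc4, a partner of the Vcp segregase that extracts ubiquitinated proteins, was lowest in fold change, with 11.02, 8.45, 6.15 and 8.89 FPKM after FeCl3 and 17.9, 22.3, 20.2 and 13.8 FPKM after saline (log2 fold change -1.03 ± 0.24 SE, adjusted p by limma = 0.245). Its groups did not overlap, and 0 of the 9 genes were called.

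**Figure D4:**
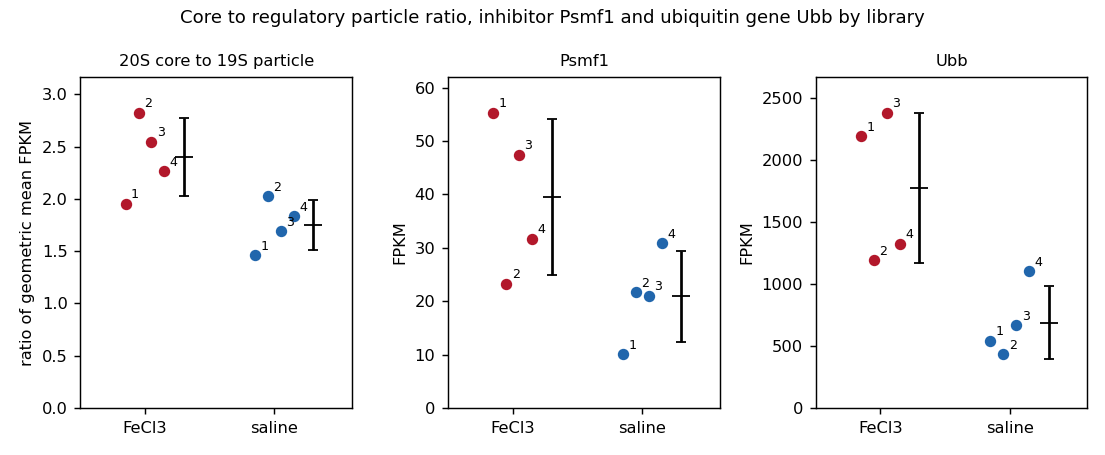
Values in each library, with FeCl3 in red, saline in blue, replicate numbers beside the points and mean ± SD as black bars: the ratio of geometric mean FPKM of 20S core to 19S genes, and FPKM of Psmf1 and Ubb. Ubb runs from 1190 to 2381 FPKM after FeCl3 and from 432 to 1104 after saline.

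Antigen processing genes that work beside the immunoproteasome had a median of 0.12 over 17 tested of 18, which is 0.36 above all tested genes. Of these 17, 13 were positive and 0 were called. B2m, the light chain of class I molecules, was the most abundant and had the highest fold change, with 1299, 1620, 805 and 1169 FPKM after FeCl3 and 503, 692, 552 and 1039 FPKM after saline (log2 fold change 0.83 ± 0.35 SE, adjusted p by limma = 0.288). Saline replicate 4 again lay within the FeCl3 range. Tap1, the neighbour of Psmb9, had 9.32, 5.63, 7.05 and 14.6 FPKM after FeCl3 and 1.07, 5.67, 5.90 and 9.48 FPKM after saline (log2 fold change 0.78 ± 0.50 SE, adjusted p by limma = 0.440). Like Psmb9, it was highest in FeCl3 replicate 4 and lowest in saline replicate 1. Canx, a chaperone of the endoplasmic reticulum, had the lowest fold change of the list, -0.45 ± 0.23 (SE, adjusted p by limma = 0.352).

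The remaining members were at low levels or were not subunits. Psma8, an alpha subunit known from testis, had 16, 41, 0 and 2 fragments in FeCl3 replicates 1 to 4 and 0, 8, 0 and 9 in saline replicates 1 to 4. Psmb11, the thymus-specific beta subunit, had 1 fragment in saline replicate 2 and 0 in the other libraries, and neither gene was tested. Psmc3ip, which acts in DNA recombination, averaged 9.63 ± 3.72 FPKM with FeCl3 against 8.70 ± 1.73 with saline (SD over 4 libraries; log2 fold change 0.09, limma adjusted p = 0.877), and Psme3ip1, a partner of PA28gamma, 7.79 ± 0.71 and 10.2 ± 1.10 FPKM (log2 fold change -0.34, limma adjusted p = 0.364).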

How the data were processed

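PolyA RNA of rat abdominal aorta was sequenced, and the authors deposited an FPKM for each gene in each library. Reads were handled with HTSeq, HISAT2 and fastp on the build mRatBN7.2, per the submitters' processing notes. Tool versions, the annotation and gene lengths are not given in the sources used here. Every sample carries batch 1 in the labels. The series' design text calls the replicates biologically independent. Columns were matched to samples by title. Whole fragments, totals and lengths were recovered from the steps of the values (100% of 18090 genes within 0.02 fragments) and used for depth, gene length and a limma voom fit; intervals are not given, since counting error is small beside the spread.

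The test used limma 3.58.1 (R 4.3.3) on log2 of FPKM plus 1, for every gene reaching 1 FPKM in 4 or more libraries (trend, two-sided, Benjamini-Hochberg over all 11921 genes, threshold 0.05). Fold changes on this scale understate low genes. Ratios were tested by exact permutation with scipy 1.17.1. On data simulated for this comparison, 11921 genes with a dispersion of 0.1, limma recovered 94 of 100 genes changed 4-fold and 20 of 100 changed 2-fold, with 8 false calls among 122. The simulation gave all genes the same dispersion and all libraries the same make-up, which these data did not have. Its recovery therefore does not hold for genes as variable as Psmb8, at 1.92 ± 0.83 (SE). Genes named are the catalytic pairs, and per role or partner list the most abundant gene and those with the highest and lowest fold change; some results under this rule are not reported here. Nfe2l1, Tap1, Psme2, Psma4, Psmb3, Psmd7, Psmg3, Ptprc, Psmc3, Psmd2, Psmd3 and Psme4 fall outside it and were chosen after their values were seen. The same holds for the other leukocyte markers named beside Ptprc. Members and lists were chosen with earlier results of these data known. Figures were drawn with matplotlib 3.10.9.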

Additional observations from a re-analysis of the deposited data

Results flagged for a closer look

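In 3 of the 80 groups of 4 libraries examined, 1 library lay far from the other 3 by Dixon's criterion at the 95% level, and chance alone gives about 1 in 20. Psme1 in FeCl3 replicate 3 was 58.8 FPKM, where the other FeCl3 libraries ran from 133 to 146. Pomp in FeCl3 replicate 2 was 364 FPKM, against 137 to 171 in the others of its group. Psmc3ip in FeCl3 replicate 2 was 15.1 FPKM, against 6.97 to 8.33. The geometric mean of the 20S core was also highest in FeCl3 replicate 2, at 150.0 FPKM.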

How the results depend on the processing

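No paired analysis was possible because the groups share only 1 sample number in the labels. The 4 within-library ratios kept their direction under every alternative run; 4 libraries against 3 cannot give an exact p below 0.0571, so fits that left out a library say nothing about the threshold. They gave log2 differences of 1.59 to 3.03 (Psmb8 to Psmb5), 0.88 to 1.78 (Psmb9 to Psmb6), 0.66 to 1.45 (Psmb10 to Psmb7) and 0.58 to 0.96 (Psme1 to Psme3). TPM scaling called 13 of the 48 members and 3288 of all 11921 tested genes, and the other limma fits called 0 members. TPM scaling also gave 0 higher and 25 lower members at an unadjusted p under 0.05 and 13 lower members without overlap. Median-of-ratios scaling gave 5 higher and 1 lower at that p, and 3 higher and 0 lower without overlap. Array weights gave 0 higher and 1 lower at that p. Without saline replicates 1 and 4, an alternative chosen after seeing the data like limma voom on recovered fragments, 0 members were higher at that p, and 1 higher and 18 lower did not overlap. Leaving out 1 library gave 0 to 3 higher and 1 to 7 lower at that p, and 0 to 2 higher and 6 to 9 lower without overlap. With fewer libraries, groups fail to overlap more easily. The shares of all tested genes at that p and without overlap are not given for these settings. Their member counts are therefore not a result about the members.

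Small fold changes reversed. With TPM scaling Psma2 was -0.40, Psmb4 -0.53, Psmd4 -0.62, Psmg4 -0.38, Psme1 -0.51, Pomp -0.51 and Psmc3ip -0.59. With median-of-ratios scaling Psmb5 was 0.0296, Psmb6 0.26, Psma1 0.0879, Psmb2 0.0007, Psmc6 0.25 and Psmd6 0.0686. With array weights Psmb6 was 0.0256, Psma1 0.0014, Psmc6 0.11 and Psmc3ip -0.0059. Without saline replicates 1 and 4, Psmb4 was -0.0142, Psmd4 -0.0391, Psme1 -0.0164, Pomp -0.0642 and Psmc3ip -0.0231. Leaving out 1 library gave -0.19 to 0.0731 for Psmb6, -0.40 to 0.0032 for Psma1, -0.22 to 0.0547 for Psmc6, -0.0869 to 0.42 for Pomp and -0.13 to 0.21 for Psmc3ip. The reversals by scaling follow from its shift of all genes, and the cause of the others was not tested. Depth limits mainly Psma8 and Psmb11, which had 0 to 41 fragments. In saline replicate 1 Psmb8 was also low, at 35 fragments, and Psmb9 had 85. The spread between libraries limits the rest.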
